A study of Mus musculus with 4 samples.

Results

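Phosphatidylcholine is the main phospholipid of cell membranes and of the lipoproteins and bile that hepatocytes export. Most of it is made by the CDP-choline (Kennedy) pathway, in which choline kinase phosphorylates choline, a cytidylyl transferase activates phosphocholine to CDP-choline, and a choline phosphotransferase joins that head group to diacylglycerol. A parallel branch handles ethanolamine, and hepatocytes can also methylate phosphatidylethanolamine to phosphatidylcholine. The genes examined here were those of these steps: the choline kinases Chka and Chkb, the cytidylyl transferases Pcyt1a (choline) and Pcyt2 (ethanolamine), the phosphotransferases Chpt1 and Cept1, and the methyltransferase Pemt. Of these 7 genes, 4 had rows in the deposited values, with 24 transcript models in all (Chka 6, Chkb 5, Pcyt1a 4 and Pcyt2 9) among 37363 models of 19284 gene identifiers. Chpt1, Cept1 and Pemt had no row and were not analysed here.

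The study profiled RNA of primary mouse hepatocytes, the metabolic cells of the liver, by a sequencing assay aimed at long non-coding RNA. It compared cells labelled control with cells labelled NEAA, which received non-essential amino acids, those that an animal cell can synthesise. There were 2 samples in each group, and the labels give no strain, genotype, age, dose or duration. No label says whether the samples came from separate animals or cultures, so the spread between samples of a group may be technical.

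The values are FPKM (fragments per kilobase of transcript, scaled to the size of the library), and the depth behind them is unknown. FPKM summed over all models came to between 60942.0 and 73600.1 per sample, lower in both NEAA samples. Of 13 hepatocyte markers, 3 had a model. Their summed level was 24.0 and 30.6 FPKM in the control samples and 58.9 and 59.2 in the NEAA samples, nearly all of it Trf (transferrin). Cyp2e1 stayed between 0.00445 and 0.153 FPKM and Ass1 between 1.39 and 3.19. Albumin (Alb) and Ttr had no row, so the cell type could be checked only in part. Summed markers of other liver cells were low in every sample. They ranged from 0.530 to 1.69 FPKM for macrophages (2 of 6 genes with a model), 0.590 to 1.26 for endothelial cells (4 of 5) and 1.24 to 1.73 for stellate cells and fibroblasts (5 of 7). Markers of cholangiocytes (1 of 4) reached 0.0118 FPKM and those of red blood cells (3 of 4) reached 0.0216. Clec4g, Hba-a2 and Hbb-bs were listed at 0 in all samples. The hepatocyte markers Ass1 and Cyp2e1 were low too, so low values do not show that a cell type was absent. The part of cell composition in the results below was not tested.

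The models of these protein-coding genes cannot be read as levels of their coding mRNA. In each of the 4 genes with rows, there were as many models as GENCODE M21 has retained-intron transcripts, and the 3 genes without rows have 0 such transcripts. Among 80 further genes of choline and phospholipid metabolism, the numbers matched for 50 of the 50 with a model, and 30 of the 30 without a model have 0 retained-intron transcripts. A retained-intron transcript keeps intron sequence that is spliced out of the coding mRNA, and it also holds exon sequence. Of the 4652 bases of Chka-207, 2118 lie in introns of the coding transcript, and of the 839 bases of Chkb-205, 34 do. The quantifier is not given in the sources used here, so reads of spliced mRNA may have entered these FPKM, and their share was not tested. The files tie a model to its gene and not to a transcript, so models are numbered below in file order, and a model of a gene is not independent of the gene's other models.

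Chka (ENSMUSG00000024843, GRCm38 chromosome 19, 3851773 to 3894369, plus strand) has 14 annotated transcripts, 6 of them with a retained intron. Set against the 11 exons of the coding transcript Chka-202, 4 of these 6 cover part of intron 2, which is 19712 bases long, and 2 cover intron 8, which is 2118 bases long. Chka-207 keeps intron 8 (3889989 to 3892106) whole, and Chka-204 keeps part of it. Some reads can be shared, since 9 of the 15 pairs of these transcripts have bases in common. Antisense genes also overlap Chka on the minus strand. AC133523.2 shares 165 exonic bases with Chka-214, and its 1 model measured 1.17 and 1.33 FPKM without and 0.574 and 0.407 with NEAA. Gm16066, at the start of Chka, measured 0.108 and 0.155 FPKM against 0.0113 and 0.0263. Without a stated strand setting, reads of Chka and of these genes cannot be told apart where they overlap.

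**Figure D1:**
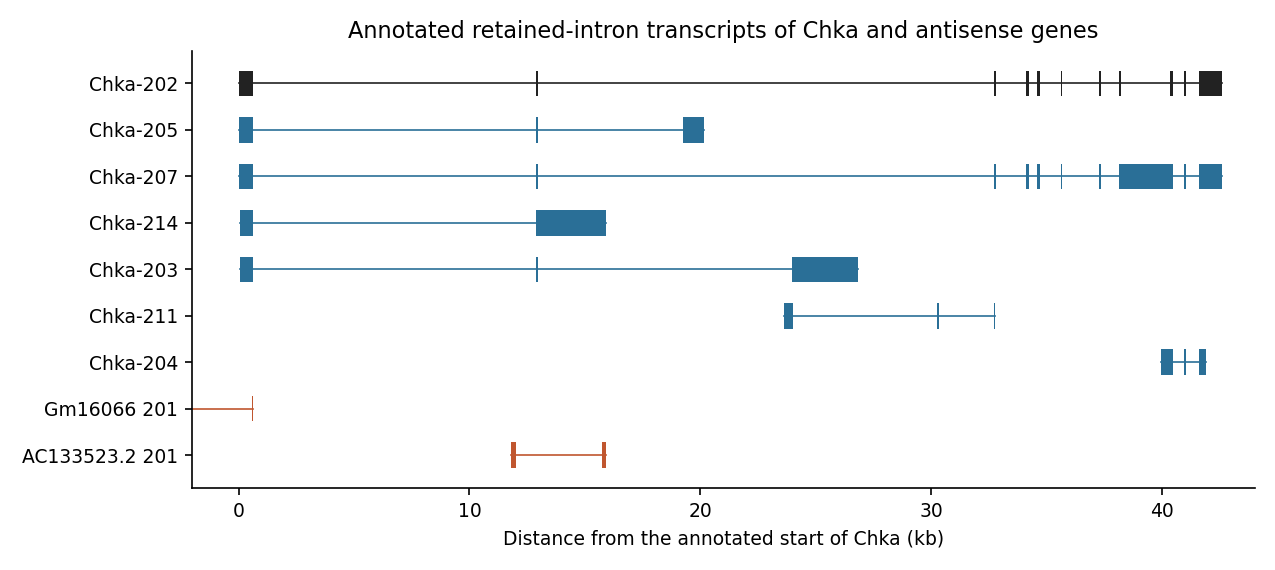
Exons (boxes) and introns (lines) of Chka transcripts by distance from the annotated gene start in kb: the coding transcript Chka-202 in black, the 6 retained-intron transcripts in blue and the antisense genes in orange, of which Gm16066 extends past the left edge. The 3 widest blue boxes reach into intron 2 (Chka-214), lie within it (Chka-203) or cover intron 8 (Chka-207), and Chka-205 has a narrower box in intron 2. Exons 1 and 2 of Chka-211 also lie within intron 2, and the remaining blue boxes include exon sequence shared with the coding transcript.

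The splice sites below, read from the GENCODE M21 transcript sequences, show what an unspliced model holds at its exon borders. Exon bases are in lower case and the 15 intron bases next to each border in capitals. An intron wholly kept in an annotated transcript is shown for each gene that has one, namely Chka intron 8 (2118 bases), Chkb intron 3 (169 bases, chromosome 15, 89428545 to 89428713, minus strand) and Pcyt2 intron 7 (428 bases, chromosome 11, 120612602 to 120613029, minus strand).
Chka intron 8, 5′ site: tcccgaaaacaacagGTAGGAGAAGCATTT
Chka intron 8, 3′ site: TAATTCTTTTTTAAGctccattttatttcc
Chkb intron 3, 5′ site: gaacagtacctcccaGTAAGAGCCCAGTTT
Pcyt2 intron 7, 5′ site: gaagtctcctcccagGTGACCAGATGGTGG
Each of the 3 introns begins with GT and Chka intron 8 ends with AG, the usual borders of spliced introns. Which model of a gene carries these bases could not be told.

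In cells given NEAA, 5 of the 6 models of Chka were lower. The models of both cytidylyl transferase genes had higher means, while Chkb changed little. Summed over its 6 models, Chka measured 197 and 207 FPKM in the control samples and 80.0 and 81.4 in the NEAA samples, so that control was 2.50 times as high. The sum over 4 models of Pcyt1a measured 1.85 and 2.19 FPKM without and 5.79 and 6.55 with NEAA, 3.06 times as high in NEAA. Pcyt2 summed over 9 models to 4.44 and 3.92 FPKM in the control samples and 12.3 and 11.4 in the NEAA samples, 2.83 times as high in NEAA. Chkb summed over 5 models to 3.92 and 5.23 FPKM without and 3.69 and 3.32 with NEAA. The groups did not overlap for any of the 4 sums, as for 34.4% of all gene sums in the lower and 26.2% in the higher direction, and the distance between them for Chkb was smaller than the difference between its control samples. The genes were selected on this contrast between the NEAA and control FPKM of these samples, so all changes here are descriptions and support nothing by themselves. In bulk samples, fewer cells of a type and less RNA per cell cannot be told apart.

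**Figure D2:**
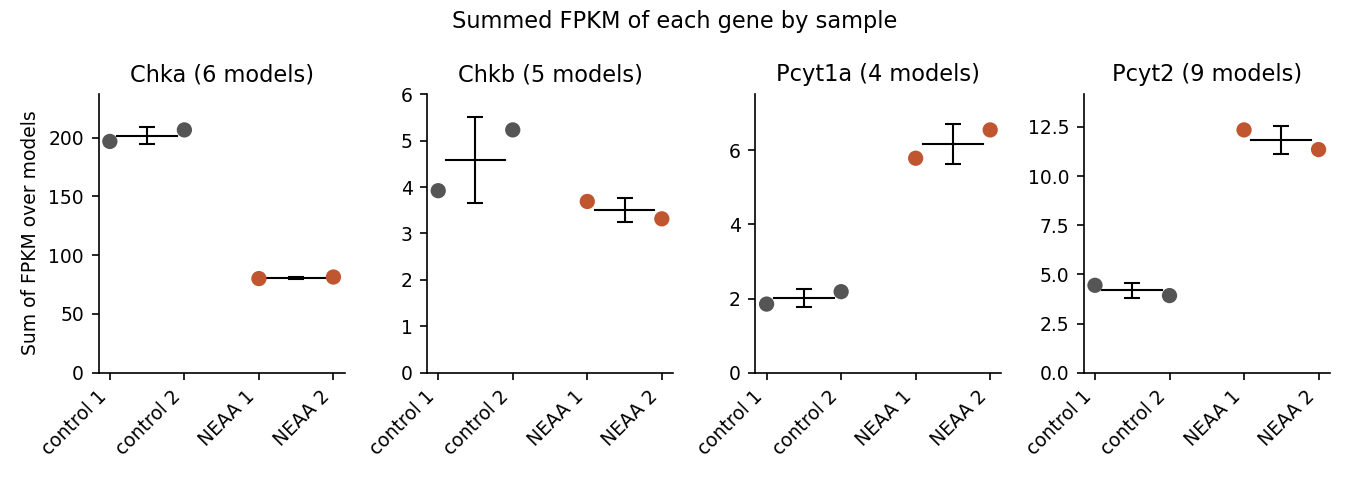
FPKM summed over the models of each gene (y axis, linear, from 0) in each of the 4 samples (points), with the group mean and SD (n = 2) in black. Chka averages 201.6 FPKM in control and 80.7 in NEAA, Pcyt1a and Pcyt2 lie higher in both NEAA samples, and the Chkb groups lie close together.

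The changes in the sums were fitted on the log2(FPKM + 1) scale with limma over all 4700 genes with a mean sum of at least 1 FPKM. The log2 fold change was -1.31 (SE 0.12) for Chka. Pcyt1a changed by 1.25 (SE 0.14), Pcyt2 by 1.31 (SE 0.14) and Chkb by -0.30 (SE 0.17). This scale understates the change of low genes such as Pcyt1a. At an adjusted p under 0.05, 1 of the 4 sums was called lower (Chka) and 2 higher (Pcyt1a and Pcyt2), against 4.11% of all sums called lower and 6% called higher. The median over all sums was -0.06, and Chka stood at place 49 from the most negative end. Pcyt2 stood at place 126 and Pcyt1a at place 138 from the most positive end. With 1 sample fewer the calls were mostly lost. None of these sums was called without control 1, without control 2 or without NEAA 1, and Chka alone was called without NEAA 2, though 0, 0, 7 and 88 sums of all genes were called in those fits. The log2 fold change of Chka stayed between -1.35 and -1.28 in the 3 fits that lost its call.

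The level of Chka set it apart from the other steps before any comparison of groups. Among the 9265 protein-coding genes with a row, its sum ranked 7 and 8 in the control samples and 21 in each of the NEAA samples. Genes without a row, such as Alb and Ttr, are not in this ranking. Leaving out Gm26917 and Gm42418, a pair of very abundant rows, Chka held 0.567% and 0.568% of the remaining FPKM in control and 0.241% and 0.248% in NEAA. The other genes ranked between 1063 and 2827 in control. In control the order of the sums was Chka, then Chkb and Pcyt2, whose values overlapped, then Pcyt1a below both. In NEAA the order was Chka, Pcyt2, Pcyt1a and Chkb, with no overlap between neighbours. A sum over models adds overlapping transcripts, and the number of models differs between genes, so it is not the level of a single RNA.

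The ratio of Chka to the cytidylyl transferases therefore narrowed. Chka measured 106 and 94.5 times the sum of Pcyt1a in the control samples and 13.8 and 12.4 times in the NEAA samples. Against Pcyt2 the ratio was 44.3 and 52.7 in control and 6.48 and 7.17 in NEAA. The ratio to the other kinase gene narrowed less, with Chka at 50.2 and 39.5 times Chkb in control and 21.7 and 24.5 times in NEAA. The ratio of Pcyt1a to Pcyt2, at 0.416 and 0.557 in control and 0.468 and 0.577 in NEAA, overlapped between the groups. These ratios are within a sample, so a rescaling of the whole library leaves them as they are.

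**Figure D3:**
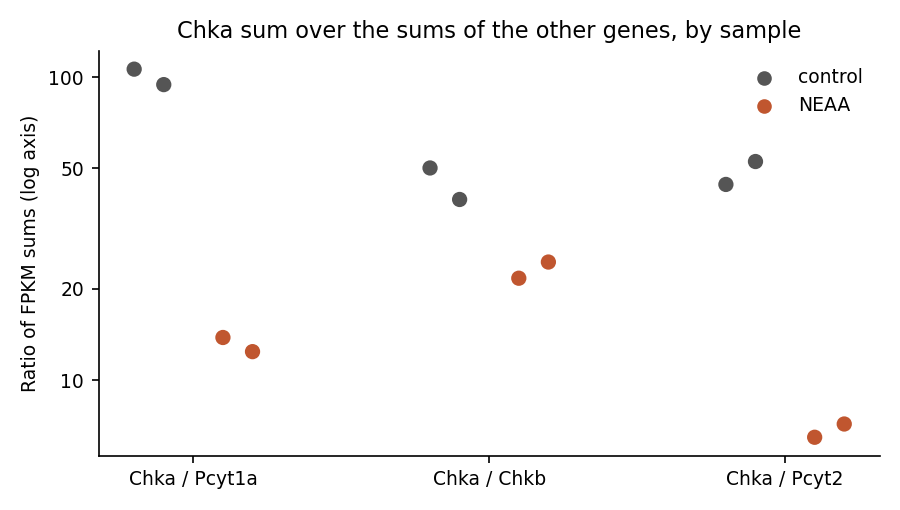
Ratio of the Chka FPKM sum to the sums of Pcyt1a, Chkb and Pcyt2 (log axis) in each control (grey) and NEAA (orange) sample. The NEAA points lie below the control points for each of the 3 ratios, and lowest, at 6.48 and 7.17, for Pcyt2.

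The fall of Chka was shared by 5 of its 6 models. Chka phosphorylates choline, the entry step of the pathway. Model 4, the highest, measured 51.1 and 53.0 FPKM in the control samples and 22.0 and 23.1 in the NEAA samples. Model 3 measured 42.6 and 45.4 FPKM against 18.0 and 17.7, and model 6 measured 41.8 and 44.7 against 18.4 and 18.3. These 3 models were 2.31 to 2.47 times as high in control as in NEAA. Model 5 measured 32.0 and 34.1 FPKM without and 11.6 and 12.01 with NEAA, and model 2 measured 29.2 and 29.3 against 9.98 and 10.2. The lower pair thus differed slightly more, being 2.81 and 2.89 times as high in control. Model 1 stood apart, at 0.0993 and 0.106 FPKM in the control samples and 0.113 and 0.108 in the NEAA samples, and was below the level filter. Its groups did not overlap, narrowly and in the higher direction. In none of the 5 high models did the groups overlap, where 36% of all tested models did not overlap in the lower direction. Samples of 1 group differed by at most 2.90 FPKM in these high models.

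The proportions among the Chka models shifted a little between the groups. Model 4 held 26.0% and 25.7% of the gene sum in control and 27.5% and 28.4% in NEAA. Model 2 held 14.8% and 14.2% in control and 12.5% and 12.6% in NEAA, and model 5 held 16.3% and 16.5% against 14.4% and 14.8%. The share of model 3 overlapped between the groups, at 21.7% and 22.0% against 22.5% and 21.7%. The highest of the 5 models was 1.75 and 1.81 times the lowest in the control samples and 2.21 and 2.26 times in the NEAA samples.

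Chkb is the second choline kinase gene (ENSMUSG00000022617, chromosome 15, 89426360 to 89429908, minus strand). It shares 3337 bases with Gm44502, annotated as protein-coding, on the same strand, and C730034F03Rik overlaps it on the other strand. That gene's model measured 0.931 and 1.25 FPKM in control and 0.971 and 0.474 in NEAA. Only model 1 of Chkb passed the level filter, at 1.90 and 1.96 FPKM in control cells, 2.04 and 1.42 in NEAA cells, and its groups overlapped. Model 3 was the one whose groups did not overlap, at 0.713 and 1.21 FPKM against 0.421 and 0.460. The other 3 models lay between 0.0413 and 1.01 FPKM and overlapped. All 5 had a lower mean in NEAA, none by more than the 2.18-fold of model 3, and the direction of model 1 depended on the scaling. It changed by -0.11 (SE 0.16) on the log2 scale as deposited and by 0.04 after each sample was rescaled to the same sum.

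Pcyt1a makes CDP-choline, usually the rate-setting step of the pathway (ENSMUSG00000005615, chromosome 16, 32430921 to 32475070, plus strand). Its 4 models were all higher in both NEAA samples than in either control, as were 22.8% of all tested models. Model 3 was below the level filter, so that share does not cover it. Models 1 and 4 passed the filter only through their NEAA values, so the share is no fair measure for them. Model 2 measured 0.980 and 1.10 FPKM without and 2.20 and 2.03 with NEAA, model 1 measured 0.518 and 0.707 against 1.52 and 1.30, and model 3 measured 0.271 and 0.245 against 0.507 and 0.441. These were 1.84 to 2.31 times as high in NEAA. Model 4 differed most, from 0.0813 and 0.133 FPKM in control to 1.56 and 2.78 in NEAA, where its NEAA samples were also the least alike. The 3.06-fold difference of the sum, and the ratios of Chka to Pcyt1a, include model 4, while each other model differed by less. The antisense gene 2210020O09Rik and Slc51a, which overlap Pcyt1a on the other strand, were listed at 0 in all samples.

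Pcyt2 makes CDP-ethanolamine (ENSMUSG00000025137, chromosome 11, 120610087 to 120617936, minus strand). All 9 models had a higher mean in NEAA, and for 8 of them the groups did not overlap. Among all tested models, 22.8% did not overlap in the higher direction. That share leaves out models below the level filter, and 6 of these 9 were below it. Models 1 and 9 passed it only through their NEAA values. Model 8 measured 1.75 and 0.457 FPKM in the control samples and 3.74 and 3.30 in the NEAA samples, model 9 measured 0.0757 and 1.01 against 2.83 and 2.52, and model 1 measured 0.658 and 0.590 against 1.82 and 1.45. The control samples disagreed on models 8 and 9 in opposite directions. The other 6 models lay between 0.0786 and 0.719 FPKM in control and between 0.200 and 0.991 in NEAA, and model 4 was the one whose groups overlapped.

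**Figure D4:**
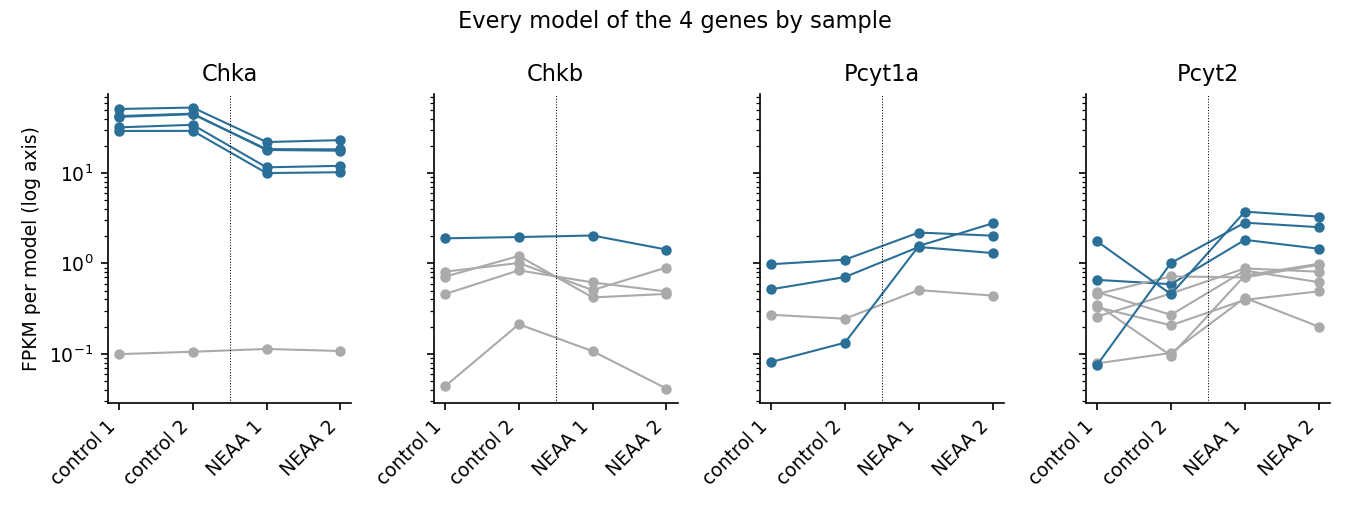
FPKM of each of the 24 models (log axis) in the 4 samples, with models above the filter of a mean of 1 FPKM in blue and the rest in grey. The 5 high Chka lines drop between control 2 and NEAA 1, and at that step the 4 Pcyt1a lines and all Pcyt2 lines but that of model 4 rise. The Chkb lines cross, with the groups overlapping for 4 of the 5 models, and all 5 have a lower mean in NEAA.

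Of the 24 models, 12 had a mean of at least 1 FPKM and entered the fit over 6064 models, namely 5 of Chka, 1 of Chkb, 3 of Pcyt1a and 3 of Pcyt2. Pcyt1a models 1 and 4 and Pcyt2 models 1 and 9 passed only through their NEAA values. The 5 models of Chka were called lower at an adjusted p under 0.05, where 0.956% of all models were, with log2 fold changes from -1.45 to -1.17 (SE 0.14 each). None of the 7 others was called, where 1.95% of all models were called higher. The genes were selected on this contrast and models of a gene are not independent, so these counts are descriptions only. The 3 models of Pcyt1a changed by 0.58 (SE 0.14), 0.61 (SE 0.12) and 1.49 (SE 0.24) and those of Pcyt2 by 0.70 (SE 0.14), 1.17 (SE 0.35) and 1.32 (SE 0.34). Groups did not overlap for 36% of all models in the lower and 22.8% in the higher direction. The median log2 fold change over the 6064 models was -0.09. The Chka calls lay near the threshold: 0 of the 5 remained after rescaling to a common sum or with any 1 sample left out, fits in which the log2 fold changes stayed negative.

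**Figure D5:**
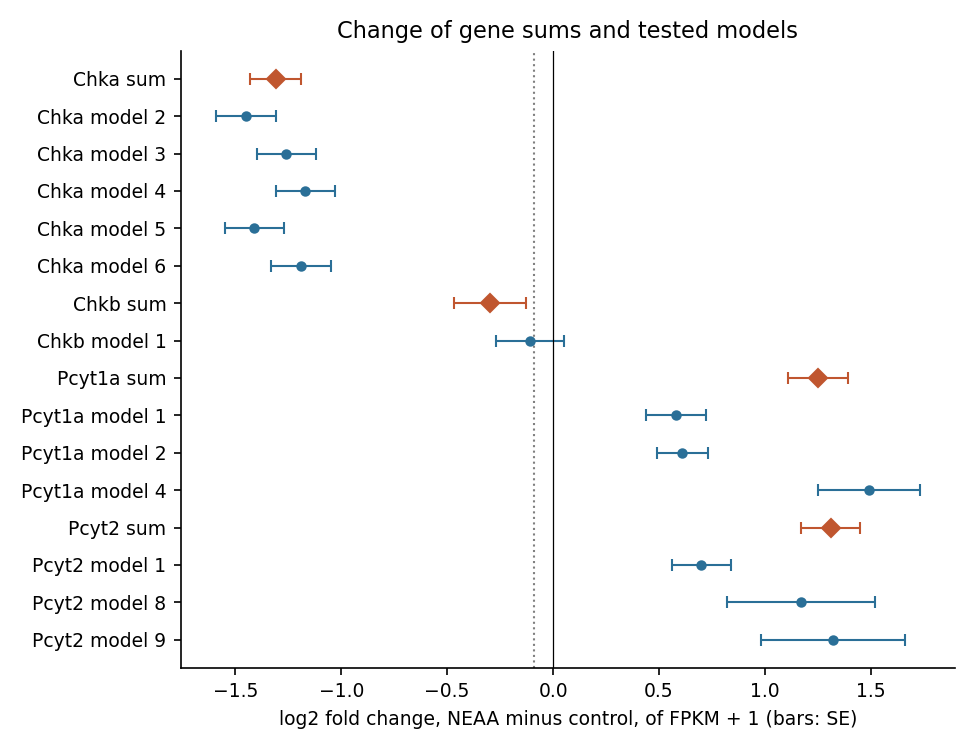
Log2 fold change (NEAA minus control, FPKM + 1) with its SE for the 4 gene sums (orange diamonds) and the 12 tested models (blue circles). The dotted line marks the median of all models at -0.09, with every Chka value to its left between -1.45 and -1.17 and every Pcyt1a and Pcyt2 value to its right, from 0.58 to 1.49.

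The promoters of Chka and Pcyt1a are shown because their gene sums moved in opposite directions. Sequences are from RefSeq (GRCm38.p6), 250 bases before to 50 after the annotated start, and 6 of the 7 genes had an entry, all but Pcyt2. Capitals mark matches, on either strand, to any of 5 motifs: the sterol regulatory element TCACCCCAC, bound by the SREBP factors of lipid synthesis, the C/EBP-ATF element TGATGCAA of the amino acid response, the CCAAT box CCAAT, the E-box CACGTG and the GC box GGGCGG.
Chka, chr19:3851523-3851822, plus strand: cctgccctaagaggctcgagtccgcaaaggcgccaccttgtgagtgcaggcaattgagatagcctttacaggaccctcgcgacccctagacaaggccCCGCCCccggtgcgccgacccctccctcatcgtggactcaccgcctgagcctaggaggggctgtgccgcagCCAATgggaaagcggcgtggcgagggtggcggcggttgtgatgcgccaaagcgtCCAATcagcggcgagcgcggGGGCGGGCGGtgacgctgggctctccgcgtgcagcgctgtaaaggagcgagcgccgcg
Pcyt1a, chr16:32430671-32430970, plus strand: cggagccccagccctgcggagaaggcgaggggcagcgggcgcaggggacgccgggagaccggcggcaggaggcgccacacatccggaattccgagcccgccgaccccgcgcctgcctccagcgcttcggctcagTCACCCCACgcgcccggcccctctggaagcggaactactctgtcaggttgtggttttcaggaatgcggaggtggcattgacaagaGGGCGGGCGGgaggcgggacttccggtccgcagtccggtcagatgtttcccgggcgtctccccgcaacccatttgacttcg
The Pcyt1a window held 1 sterol regulatory element, starting at base 135 of the window, and 2 overlapping GC boxes. The 3 Pcyt1a windows in the table include 2 overlapping ones that hold this element. It is in 0.551% of the 32851 promoter windows of the table. Of the other 5 genes with an entry, 0 had it. The Chka window held 2 CCAAT boxes, at bases 169 and 223, and 3 GC boxes, 2 of which overlap. A CCAAT box is in 37.4% of all windows and a GC box in 35.7%. The C/EBP-ATF element (0.895% of windows) and the E-box (7.15%) were in neither. The 5 motifs were chosen with the sequences in view, so these shares are no test for any gene. A match is a description of these letters and not evidence of binding.

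The wider pathway was followed in 80 genes, of which 50 had a model and 20 had a model that passed the filter, 40 models in all. Of the 40 models, 1 rose, 0 fell and 39 did not pass, with a median log2 fold change of 0.10, where 2.9% of all models were called. At an unadjusted p under 0.05 there were 8 of the 40, where 25.9% of all models were. Of the 26 gene sums tested, 1 rose and 1 fell, where 10.1% of all sums were called. Neither count stands above the background.

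The supply of diacylglycerol, the lipid backbone that accepts the choline head group, held the model that rose. It was model 5 of Lpin2, a phosphatidate phosphatase that makes diacylglycerol, at 1.12 and 1.06 FPKM without and 3.22 and 2.95 with NEAA (log2 fold change 0.97, SE 0.12, limma adjusted p = 0.0443). Over its 8 models Lpin2 rose from 13.4 and 11.4 to 23.6 and 22.4 FPKM (log2 fold change 0.85, SE 0.14, limma adjusted p = 0.0390 over gene sums). The call of model 5 was lost without a filter, at a filter of 0.5 FPKM, after rescaling without Gm26917 and Gm42418, with a replicate block and with any 1 sample left out (limma adjusted p from 0.0506 to 0.204). That of the sum was lost without a filter, with the block and with any 1 sample left out (limma adjusted p from 0.0648 to 0.151). Lpin2 models 2 and 8 averaged 1.81 and 2.32 FPKM in control cells, 3.66 and 6.42 in NEAA cells, and did not pass (limma adjusted p = 0.0638 and 0.0664). Of the 12 tested models of this list 7 belong to Lpin2, and 11 of the 12 did not pass. Counted by gene, 3 of the 5 tested sums were higher and 2 lower in NEAA, and the median of their log2 changes was 0.13.

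In the ethanolamine and phosphatidylserine branch, the sum over the 5 models of Pisd, the mitochondrial phosphatidylserine decarboxylase that makes phosphatidylethanolamine, fell from 3.0 FPKM in each control to 1.39 and 1.18 FPKM. That was a change of -0.81 on the log2 scale (SE 0.13, limma adjusted p = 0.0323 over gene sums), while its 1 tested model, at 1.53 FPKM in control and 0.526 in NEAA, did not pass (limma adjusted p = 0.0932). The call of the sum was lost without a filter, with the block and with any 1 sample left out (limma adjusted p from 0.0662 to 0.138). Etnk1, an ethanolamine kinase and the counterpart of choline kinase in that branch, measured 2.45 and 2.55 FPKM in the control samples and 4.04 and 3.97 in the NEAA samples, without passing (limma adjusted p = 0.102). Ptdss2, a phosphatidylserine synthase, measured 1.47 and 1.72 FPKM on average (limma adjusted p = 0.551). Of the 5 tested models of this list 0 were called, with a median of 0.09.

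Among genes of choline oxidation and methyl donors, 0 of 8 tested models were called, with a median log2 fold change of -0.14. Models 2 and 3 of Mat2a, which makes the methyl donor S-adenosylmethionine, measured 2.90 and 5.11 FPKM in control and 1.91 and 2.97 in NEAA (limma adjusted p = 0.263 and 0.276). Aldh7a1, an aldehyde dehydrogenase that oxidises betaine aldehyde, measured 1.13 and 1.95 FPKM (limma adjusted p = 0.288). For choline import, 5 of 11 genes had a model and 0 models passed the filter.

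Among genes that remodel, break down or use phosphatidylcholine, 0 of 15 tested models were called, with a median of 0.15. Model 4 of Pnpla7, a lysophospholipase, measured 3.41 and 1.74 FPKM without and 11.3 and 6.39 with NEAA (limma adjusted p = 0.124). Lpcat3, which reacylates lysophosphatidylcholine, had a model at 6.62 and 11.1 FPKM against 4.82 and 0.931 (limma adjusted p = 0.232). The Lpcat3 sum over 6 models overlapped between the groups, at 10.2 and 16.2 FPKM against 9.46 and 13.9 (limma adjusted p = 0.743 over gene sums). Stard10, a phospholipid transfer protein, measured 0.791 and 1.64 FPKM on average (limma adjusted p = 0.215).

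Model 4 of Chka was compared with all other tested models over the 4 samples by the distance between their log2(FPKM + 1) values, each centred on its own mean. The 5 nearest models of other genes were 1 each of Gm27177 (distance 0.0384), Neat1 (0.0474), Gnas (0.0620), Ogt (0.0853) and Snrnp70 (0.0904). The other high models of Chka lay at distances of 0.0660 to 0.278. Neat1 measured 62.7 and 64.1 FPKM in the control samples and 28.0 and 28.4 in the NEAA samples, and Ogt 21.9 and 22.3 against 9.64 and 10.1. The log2(FPKM + 1) scale understates the change of low models, so near models need not share a fold change. In mean FPKM, control was 2.31 times NEAA for Chka model 4, 2.25 times for Neat1 and 2.24 times for Ogt. It was 2.79 times for Gm27177 and 3.15 times for Snrnp70. Gnas differed more, at 1.88 and 1.90 FPKM in the control samples and 0.313 and 0.318 in the NEAA samples. With 4 samples in 2 groups, nearness says little more than that a model changed by about the same amount on the log2(FPKM + 1) scale.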

How the data were processed

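Per the submitters' processing notes the genome builds were GRCm38 and mm10, names of the same assembly. The aligner, quantifier, annotation release, strand setting and filters were not stated in labels, notes or headers. The authors deposited FPKM values per model with a gene identifier, 1 file per sample. Rows were joined across samples, GENCODE M21 supplied symbols and 1-based coordinates, and only models averaging 1 FPKM or more entered the fit. The log2(FPKM + 1) values of models, and of sums over the models of a gene, were compared between the groups in R 4.3.3 with limma 3.58.1 (eBayes with a mean trend). P-values were 2-sided and adjusted by Benjamini-Hochberg over all 6064 models or 4700 sums, with a threshold of 0.05. Because the smallest p of an exact permutation test with 2 samples a group is 0.333, limma's pooled spread was used. Means and SDs are of FPKM. FPKM are relative within a library and keep no depth, so no counting intervals were given.

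The members and lists were chosen with earlier results of these data known, so members carry no p-value. Named were all models of the 7 genes, and in each of the 5 pathway lists the called models and the 3 of smallest p. Also named were the 5 models nearest to the Chka model of highest mean. Gene sums of the pathway lists were named where called, and that of Lpcat3 was given beside its model. The 5 promoter motifs were chosen with the sequences in view. Alternatives were other pseudocounts, filters and scalings, no trend, a replicate block and leaving out each sample. Replicate numbers were not treated as pairs, because the labels tie them to no common animal or date.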

Additional observations from a re-analysis of the deposited data

How the results depend on the processing

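The 4 gene sums kept their direction in every alternative that could be fitted, with log2 fold changes of -1.35 to -1.10 for Chka, 1.17 to 1.79 for Pcyt1a, 1.24 to 1.70 for Pcyt2 and -0.47 to -0.13 for Chkb. Of the gene sums 3 were called, and 2 at a filter of 5 FPKM, where Pcyt1a and Chkb were not tested. Leaving out 1 sample each gave 0 to 1 called gene sums among the 4 genes and 0 to 88 among all genes, 0 called models among the 4 genes, among the wider pathway and among all models. Fewer samples leave 1 residual degree of freedom. The number of called Chka models was 5, and it was 0 without a filter, 0 after rescaling to a sum of 1000000 and 0 with a replicate block. It was 3 at a filter of 0.5 FPKM, 3 after rescaling without Gm26917 and Gm42418, and 2 with quantile normalization. The cause was not tested. Chkb model 1 reversed to 0.04 after rescaling and to 0.05 without NEAA 2, and ranged from -0.27 to 0.05 with 1 sample left out. Among all models, 176 were called (118 higher, 58 lower), 0 without a filter, 100 (46 higher, 54 lower) at a filter of 5 FPKM, 110 (90 higher, 20 lower) after rescaling and 117 (86 higher, 31 lower) after rescaling without Gm26917 and Gm42418. Among all gene sums, 475 were called (282 higher, 193 lower), 244 (181 higher, 63 lower) without a filter and 153 (73 higher, 80 lower) at a filter of 5 FPKM. After rescaling, 476 were called, of which 390 were higher and 86 lower, and the median of all gene sums moved from -0.06 to 0.13. The called Lpin2 model was lost (0 called in the wider pathway) without a filter, after rescaling without Gm26917 and Gm42418, and with the block, and it was not tested at 5 FPKM, where 0 were called. At a filter of 0.5 FPKM it was also lost, while 1 different model of the wider pathway was called higher. With the replicate block, 0 models and 185 gene sums were called among all genes, 3 of them among the 4 genes. Deviations of same-numbered samples correlated with r = -0.00192 across 6064 models, so the numbers gave no sign of pairing. At an unadjusted p under 0.05, 1569 of 6064 models passed (25.9%), 1323 of 6064 with the block (21.8%) and 4000 of 25076 without a filter (16%).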

Other observations

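Models 8 and 9 of Pcyt2, picked out after their values were seen, traded places between the control samples, at 1.75 and 0.0757 FPKM in control 1 and 0.457 and 1.01 in control 2. Their sum was steadier, at 1.83 and 1.47 FPKM without and 6.57 and 5.82 with NEAA. Pnpla7, summed over 7 models, measured 6.84 and 4.0 FPKM in the control samples and 16.0 and 11.1 in the NEAA samples, without passing (limma adjusted p = 0.0727 over gene sums). Ahcyl2, a relative of the enzyme that hydrolyses S-adenosylhomocysteine, summed over 7 models to 1.97 and 1.81 FPKM against 1.02 and 0.988 (limma adjusted p = 0.0667 over gene sums). Both genes were named here because their sums were among the smallest p-values below the called ones.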
